A study of Mus musculus with 49 samples.

Results

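Transcription factor genes that mark the intestinal epithelium were followed across every RNA-seq group of a study of mouse small-intestinal crypt cells: Cdx1, Cdx2, Hnf4a, Hnf4g, Gata4, Gata6, Klf5 and Elf3. These 8 genes were taken by name from a table of read counts with 24062 genes, all 8 were found, and all 8 were among the 14837 genes that passed the filter on low counts. The study asked, per its title, how chromatin accessibility changes as secretory precursors return to a Lgr5+ stem cell state. Of its 49 samples, 25 RNA-seq libraries in 12 groups were used here, and the other 24 samples were not analysed.

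All mice were adults of a mixed B6;129 background, and all cells came from crypts of the proximal small intestine. Lgr5 stem cells were sorted for high GFP from Lgr5EGFP-IRES-CRE-ERT2 mice (Lgr5-GFP-Cre, 3 libraries) or for GFP from Lgr5EGFP-DTR mice (Lgr5-GFP-DTR, 2 libraries), both untreated. GFP+ cells of Bmi-1GFP/+ mice gave 3 untreated libraries (Bmi1-GFP) and 1 library taken 36 h after 10 Gy of whole-body irradiation. Enterocyte progenitors (2 libraries) were unsorted crypts of Atoh1 F/F; Villin-CRE mice, in which a Cre driven in the whole intestinal epithelium removes Atoh1, the master gene of secretory fate; they had 1 mg of tamoxifen for 5 days and were harvested after 3 weeks. The DBZ secretory progenitors (2 libraries) were unsorted crypts of Atoh1 F/F mice, with no Cre listed, given the Notch inhibitor DBZ (dibenzazepine) at 48 mg/kg at 0 and 12 h and harvested at 38 h. The Rbpj secretory progenitors (2 libraries) were unsorted crypts of Rbpj F/F; Villin-CRE mice, which lose the DNA-binding partner of Notch, given 2 mg of tamoxifen over 2 days and harvested on day 3. Enteroendocrine cells (CD24-high, UEA-lectin negative) and Paneth cells (CD24-high, UEA-lectin high) came from untreated wild-type mice, with 2 libraries each. The CD274+CD69+ gate was sorted from untreated wild-type mice (control, 2 libraries), from mice labelled wild type that had diphtheria toxin (DT) at 50 µg/kg in 4 injections (2 libraries), and from wild-type mice 115 h after the same DBZ dosing (goblet cells, 2 libraries). The labels call the replicates biological but do not say which came from the same mouse, litter or day, so p-values measure the spread between these samples.

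Libraries held between 11179085 and 27371108 counts, and the lowest count of any of the 8 genes in any library was 540. Levels below are CPM (counts relative to the library total) after TMM scaling, which adjusts each library total for composition. They compare a gene between groups and not with another gene, because gene lengths were not used. All 10 epithelial markers, such as Epcam and Krt8, were detected in every library. Atoh1 stood at 1.49 and 1.74 CPM in the enterocyte progenitors against 33.2 to 40.1 in Lgr5-GFP-Cre. Rbpj stood at 21.0 and 28.4 CPM in the Rbpj-deleted crypts against 32.8 and 39.5 in the DBZ crypts. In Lgr5-GFP-Cre it stood at 18.4, 24.6 and 22.4 CPM, so the deleted crypts did not lie below that group. The labels do not say which exons the allele loses. The TruSeq kit was named for 3 libraries (both Rbpj libraries and CD274+CD69+ control replicate 1) and SMART-Seq v4 for the others, so a kit term in the fit is separated from the Rbpj deletion through the 2 CD274+CD69+ control libraries alone, 1 of each kit. The summed level of 7 enterocyte markers was 87607 to 98490 CPM in goblet libraries, 81270 in the irradiated library and 1296 to 12105 elsewhere, so the goblet gate held abundant absorptive transcripts as well. In bulk RNA, fewer cells of a type and less RNA per cell cannot be told apart.

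These factors work as a network that keeps gut lining cells intestinal. CDX1 and CDX2 are homeobox proteins of the caudal family that set intestinal against gastric fate in the embryo and hold it in the adult, and HNF4A and HNF4G are nuclear receptors that bind enterocyte genes for lipid handling and the brush border. GATA4 and GATA6 are zinc finger factors, with GATA4 restricted to the proximal intestine and GATA6 expressed along its whole length. KLF5 is a zinc finger factor of dividing crypt cells, and ELF3 is an epithelial factor of the ETS family.

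Start-site windows of the members show which letters known to be bound by these factor families lie near their own starts. RefSeq windows of 300 bases on GRCm38.p6, the assembly that mm10 denotes, were at hand for 3 of the 8 genes: Cdx2, Elf3 and Hnf4a, the last with an upstream and a downstream start that the gene-level counts cannot separate. They run from 250 bases before to 50 bases after the start, 5′ to 3′ on the gene's strand. Both strands were searched for TTTATNG (CDX), GATAA (GATA), CAAAGNNCA (HNF4), CCNCNCCC (KLF) and AGGAAG (ETS), where N is any base, and capitals mark the matches. Those letters occur in 10.9%, 25.4%, 6.36%, 49.5% and 35.4% of the 32851 windows of that length.
Cdx2 (chr5:147307200-147307499, minus strand): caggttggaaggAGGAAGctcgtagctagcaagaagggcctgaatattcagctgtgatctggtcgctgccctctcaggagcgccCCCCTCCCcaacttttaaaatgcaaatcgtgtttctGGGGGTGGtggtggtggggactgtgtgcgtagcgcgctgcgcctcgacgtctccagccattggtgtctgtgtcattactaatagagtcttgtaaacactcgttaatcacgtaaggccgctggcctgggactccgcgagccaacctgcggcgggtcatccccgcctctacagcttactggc
Hnf4a, upstream start (chr2:163506607-163506906, plus strand): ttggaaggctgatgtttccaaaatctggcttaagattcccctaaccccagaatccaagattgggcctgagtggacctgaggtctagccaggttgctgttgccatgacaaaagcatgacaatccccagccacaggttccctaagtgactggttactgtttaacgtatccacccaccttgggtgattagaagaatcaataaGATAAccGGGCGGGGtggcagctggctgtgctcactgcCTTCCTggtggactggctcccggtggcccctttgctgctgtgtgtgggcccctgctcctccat
Hnf4a, downstream start (chr2:163546905-163547204, plus strand): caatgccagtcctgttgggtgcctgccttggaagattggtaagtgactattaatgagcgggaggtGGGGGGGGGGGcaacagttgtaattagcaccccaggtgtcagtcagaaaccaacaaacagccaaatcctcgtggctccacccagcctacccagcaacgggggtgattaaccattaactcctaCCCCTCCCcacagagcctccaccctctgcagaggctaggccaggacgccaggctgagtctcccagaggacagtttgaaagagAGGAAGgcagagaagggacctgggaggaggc
Elf3 (chr1:135258423-135258722, minus strand): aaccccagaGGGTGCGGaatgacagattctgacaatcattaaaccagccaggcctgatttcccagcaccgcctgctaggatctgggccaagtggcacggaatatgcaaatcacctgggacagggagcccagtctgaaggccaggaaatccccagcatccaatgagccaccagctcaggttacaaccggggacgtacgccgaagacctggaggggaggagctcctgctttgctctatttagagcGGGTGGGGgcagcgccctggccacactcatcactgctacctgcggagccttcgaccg
The Cdx2 window held an ETS match from -238 to -233 and KLF matches from -166 to -159 and -130 to -123, counted from the base before the start site at -1. The upstream Hnf4a window held a GATA match (-51 to -47), a KLF match (-44 to -37) and an ETS match (-13 to -8). The downstream one held 4 overlapping KLF matches in a run of G (-185 to -175), another KLF match (-63 to -56) and an ETS match (20 to 25). The Elf3 window held KLF matches from -241 to -234 and across the start, and no window held the CDX or HNF4 letters. A match is a description of these letters and not a bound site.

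**Figure D1:**
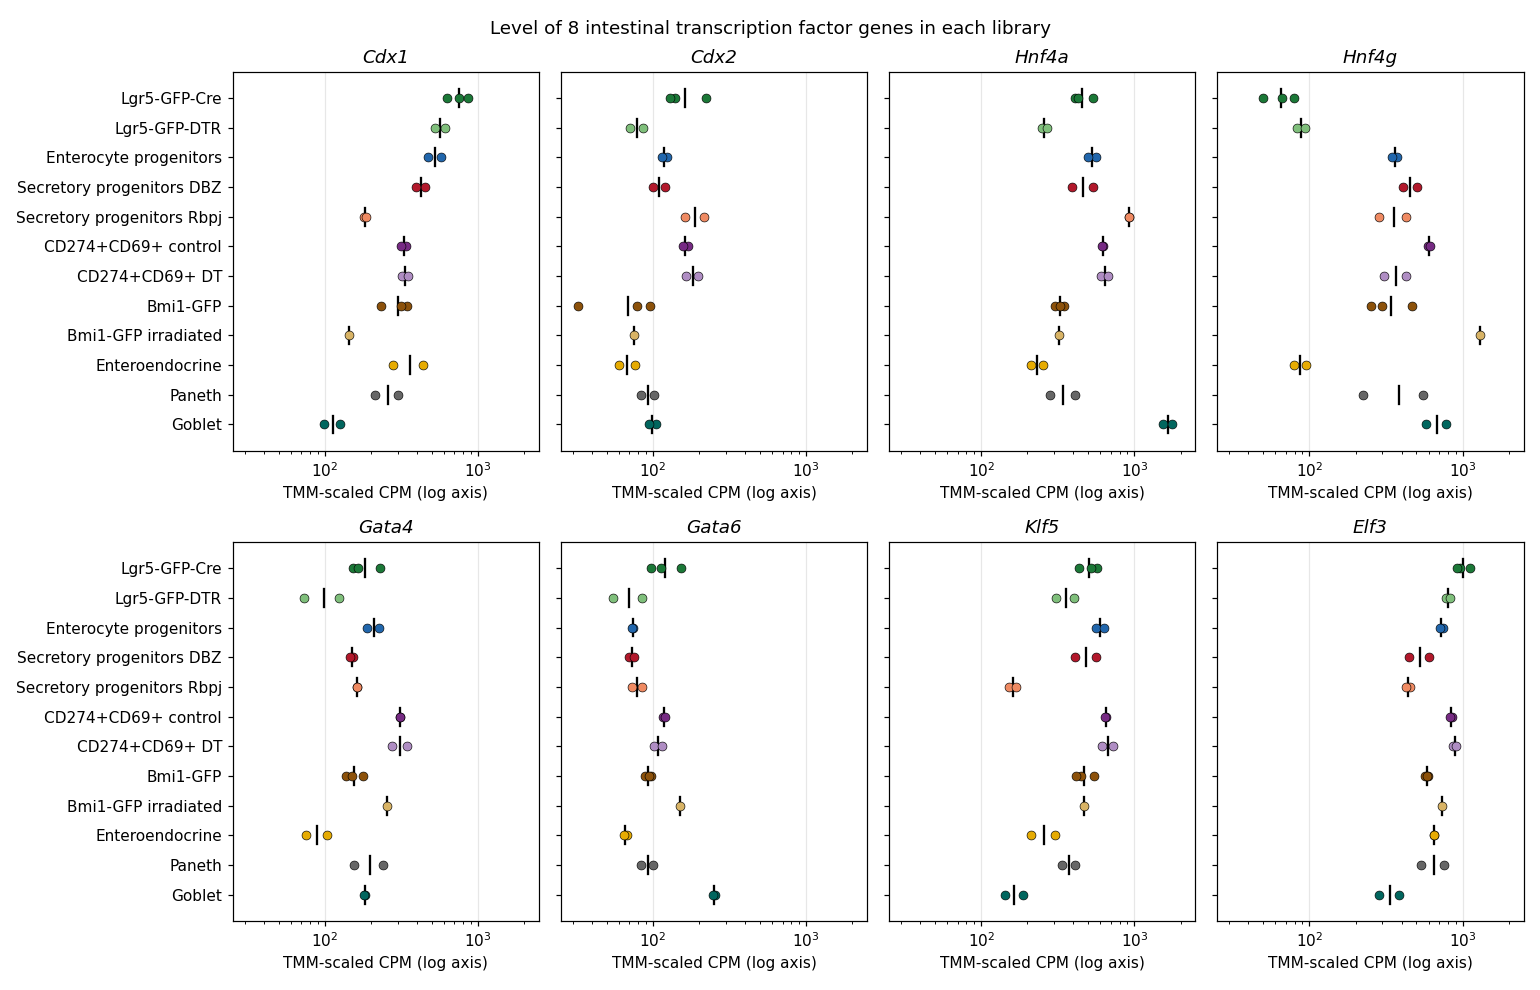
Level of each of the 8 genes in every library (x axis, TMM-scaled CPM on a log scale) by group (y axis); points are libraries and vertical bars are group means. Hnf4g is lowest in Lgr5-GFP-Cre (65.2 CPM) and highest in the single irradiated Bmi1-GFP library (1304), whereas Cdx1 is highest in Lgr5-GFP-Cre (749) and lowest in goblet libraries (112).

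All 8 genes differed among the 11 replicated groups, but so did 90.6% of all genes tested (edgeR quasi-likelihood test, adjusted p from 2.58e-08 for Hnf4a to 0.000722 for Cdx2). A gene is called here when its Benjamini-Hochberg adjusted p over all genes of a comparison is below 0.05. Differentiated or progenitor cells (7 comparisons) and the other Lgr5 line were set against the same 3 Lgr5-GFP-Cre libraries, so their results share those controls. Against them, 7 of the 8 genes were lower and 0 higher in enteroendocrine cells, where 45.9% of all genes were called, 25.5% higher and 20.4% lower. The enteroendocrine libraries also held transcripts of other cell types: 6 goblet markers summed to 13794 and 26187 CPM (1875 to 3765 in Lgr5-GFP-Cre), 4 Paneth markers to 44324 and 50568 (38760 to 44958) and 3 tuft markers to 381 and 2156 (4.10 to 8.65). Their part in the member values was not tested. In goblet libraries 3 were higher and 4 lower (69.7% of all genes called, 34.4% higher and 35.4% lower), and in Bmi1-GFP cells 1 higher and 5 lower (50.4%, 27.9% higher and 22.5% lower). In Paneth cells 1 was higher and 3 lower (40.7%, 21.6% higher and 19.1% lower). In DBZ crypts 1 was higher and 3 lower (36.7%, 21% higher and 15.7% lower), and in enterocyte progenitors 1 higher and 1 lower (39.4%, 22.2% higher and 17.2% lower). In CD274+CD69+ control cells 2 were higher and 1 lower (45.3%, 24% higher and 21.3% lower), and in Lgr5-GFP-DTR cells 0 higher and 4 lower (20.5%, 9.49% higher and 11.1% lower). The median log2 fold change of the 8 genes was -0.93 in enteroendocrine cells, -0.62 in Lgr5-GFP-DTR cells and -0.59 in goblet libraries, where the median of all genes was 0.04, -0.04 and 0.00.

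On leaving out 1 library, the count of called members could fall in each of these comparisons except that of CD274+CD69+ control cells. In relative terms it fell most in 3 of them. It fell from 4 to 2 in Paneth cells without Paneth replicate 2, and from 2 to 1 in enterocyte progenitors without enterocyte progenitor replicate 1. In Lgr5-GFP-DTR cells it fell from 4 to 2 without Lgr5-GFP-Cre replicate 2 and to 1 without Lgr5-GFP-DTR replicate 2, and none of the 4 was called when only these 2 groups were fitted. That 2-group fit called 482 of 12372 genes, where the main fit called 3049 of 14837. Where a group was left with 1 library, that library was assumed to vary like the other groups.

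The other 6 comparisons did not use Lgr5-GFP-Cre. Goblet libraries against CD274+CD69+ control cells had 2 members higher and 5 lower (51.2% of all genes called, 21.8% higher and 29.5% lower). There 42.5% of the called genes were higher, and 54.1% with DESeq2 size factors. Bmi1-GFP against enteroendocrine cells had 3 higher and 0 lower (24.7%, 12.6% higher and 12.1% lower), which fell to 1 without enteroendocrine replicate 1. Paneth against enteroendocrine cells had 2 higher and 0 lower (29.4%, 14% higher and 15.4% lower), which fell to 1 without enteroendocrine replicate 1 or Paneth replicate 2. Rbpj against DBZ crypts had 1 higher and 2 lower (24.7%, 12.9% higher and 11.9% lower). With 2 libraries a group, edgeR called 0 members between DBZ crypts and enterocyte progenitors (2.46% of all genes called, 1.89% higher and 0.573% lower), with 2 at an unadjusted p below 0.05. It called 0 between DT-treated and control CD274+CD69+ cells (0.175%, 0.0741% higher and 0.101% lower), with 0 at that unadjusted p. DESeq2 called 0 in both.

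**Figure D2:**
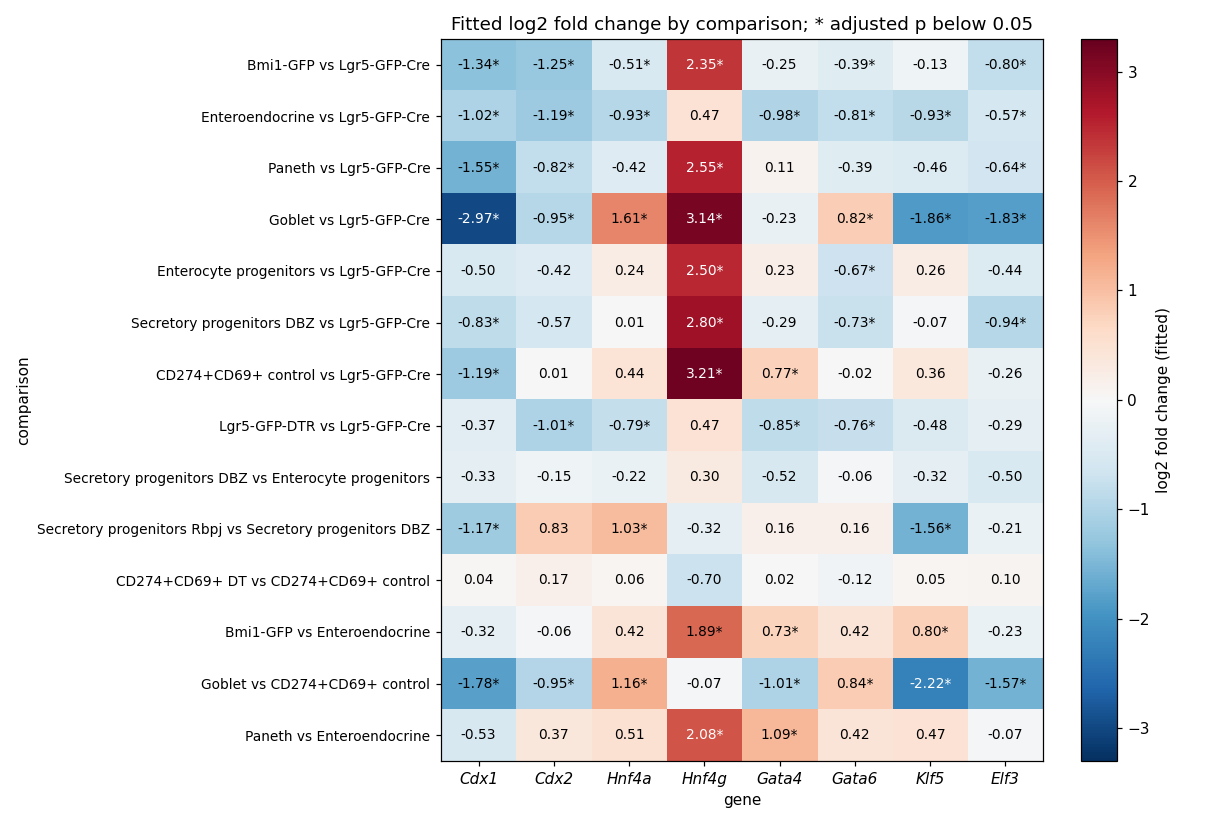
Fitted log2 fold change of each gene (columns; colour and printed value) in the 14 comparisons (rows), with an asterisk on values called at an adjusted p below 0.05. Cdx1 is lower wherever it is called and Hnf4g higher wherever it is called, in 8 of 14 comparisons each.

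Cdx1, the caudal homeobox gene enriched in crypts, was highest in Lgr5 stem cells and lowest in goblet libraries. The Lgr5-GFP-Cre libraries held 755, 864 and 627 CPM and the Lgr5-GFP-DTR libraries 608 and 523. Enterocyte progenitors held 471 and 569.5, DBZ crypts 451 and 395, Rbpj crypts 181 and 184, and goblet libraries 99.2 and 126. Every Lgr5-GFP-Cre library lay above every library of the 11 other groups. The CD274+CD69+ control cells (338 and 315), DT-treated cells (321 and 347), Bmi1-GFP cells (345, 316 and 234), enteroendocrine cells (277 and 437) and Paneth cells (299.9 and 213) lay between, and each of these 5 groups overlapped a neighbour in the order of means. Of the 11 neighbouring pairs of groups in the order of means, 5 did not overlap. Among them are the pairs of the single irradiated library with Rbpj crypts and with goblet libraries. Such counts, here and below, take that library as a group and were not made over all genes.

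Cdx1 was 7.85-fold lower in goblet libraries than in Lgr5-GFP-Cre (log2 -2.97, SE 0.25, adjusted p = 5.6e-09). The ratio of the CPM means was 6.66, because the fit was scaled over 24 libraries and the levels over 25. It was lower by 2.94-fold in Paneth cells (log2 -1.55, SE 0.23, adjusted p = 5.69e-05), by 2.54-fold in Bmi1-GFP cells (adjusted p = 4.01e-05), by 2.28-fold in CD274+CD69+ control cells (adjusted p = 0.000378) and by 2.03-fold in enteroendocrine cells (adjusted p = 0.00138). These 5 calls held in every alternative analysis. In DBZ crypts it was 1.78-fold lower (adjusted p = 0.00764; 0.0918 without DBZ replicate 2). In enterocyte progenitors the log2 fold change was -0.50 (SE 0.22, adjusted p = 0.0827), with an adjusted p of 0.0332 by DESeq2's Wald test and 0.0495 without Lgr5-GFP-Cre replicate 3. In Lgr5-GFP-DTR cells it was -0.37 (SE 0.22, adjusted p = 0.247). Goblet libraries were also 3.44-fold below CD274+CD69+ control cells (adjusted p = 9.26e-06), which share their gate.

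Rbpj crypts held less Cdx1 than DBZ crypts (2.25-fold lower, log2 -1.17, SE 0.24, adjusted p = 0.0018). With the library kit as a further term the log2 fold change was as large, at -1.30, but its SE grew to 0.43 (adjusted p = 0.123). The stem marker sum of Lgr5, Olfm4, Ascl2, Smoc2 and Axin2 was 4827 to 6944 CPM in Lgr5-GFP-Cre and 35.4 to 59.6 in goblet libraries. Over the 12 group means, log2 Cdx1 and the log2 stem sum had a Pearson correlation of 0.83 (Spearman 0.57) and Cdx1 and the enterocyte sum one of -0.81 (Spearman -0.78). For 7.77% of genes the correlation with the stem sum was higher. These points share libraries and depth and are few, and the part of cell composition in the Cdx1 levels was not tested.

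Cdx2, the paralog that is required for intestinal identity in the adult, had the smallest span between its highest and lowest group means (2.78-fold), although the standard deviation of log2 group means was smaller for Elf3 (0.45 against 0.56). Its Lgr5-GFP-Cre libraries held 138, 220.4 and 129 CPM, Rbpj crypts 216 and 162, and CD274+CD69+ control cells 168 and 156. Bmi1-GFP libraries held 32.4, 95.4 and 77.9, enteroendocrine cells 76.0 and 59.9, Lgr5-GFP-DTR cells 86.0 and 70.1, Paneth cells 101 and 83.7, and goblet libraries 104 and 93.7. The last 5 groups lay below all 3 Lgr5-GFP-Cre libraries. So did enterocyte progenitors (123 and 114), DBZ crypts (119 and 100) and the irradiated library (74.5). Only 1 of 11 neighbouring pairs of groups did not overlap. DESeq2 scaling exchanged the lowest group, from enteroendocrine to Bmi1-GFP cells.

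Against Lgr5-GFP-Cre, Cdx2 was 2.38-fold lower in Bmi1-GFP cells (log2 -1.25, SE 0.28, adjusted p = 0.0015), a call held in every alternative. It was 2.29-fold lower in enteroendocrine cells (adjusted p = 0.0063; 0.0763 without enteroendocrine replicate 2). The calls in Paneth cells (1.77-fold lower, adjusted p = 0.0483) and goblet libraries (1.93-fold lower, adjusted p = 0.014) were less firm. In Paneth cells the adjusted p was 0.0564 and 0.174 without Lgr5-GFP-Cre replicates 1 and 2, 0.0865 and 0.25 without Paneth replicates 1 and 2, and 0.0588 with DESeq2 size factors. In goblet libraries it was 0.0677 without Lgr5-GFP-Cre replicate 2, 0.0525 and 0.0901 without goblet replicates 1 and 2, and 0.0578 with DESeq2 size factors. In Lgr5-GFP-DTR cells (2.02-fold lower, adjusted p = 0.0339) it was 0.134 without Lgr5-GFP-Cre replicate 2, and 0.062 and 0.189 without Lgr5-GFP-DTR replicates 1 and 2. Goblet libraries held less Cdx2 than CD274+CD69+ control cells (1.94-fold, adjusted p = 0.0278), with an adjusted p of 0.0621 to 0.132 on leaving out any of the 4 libraries (goblet replicates 1 and 2, control replicates 1 and 2), 0.115 with DESeq2 size factors and 0.25 without the TruSeq library. In CD274+CD69+ control cells against Lgr5-GFP-Cre the Cdx2 difference was 0.01 (log2, SE 0.31), where Cdx1 was called lower.

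Hnf4a, the nuclear receptor that drives enterocyte and hepatocyte programs, was highest in goblet libraries, with 1531 and 1760 CPM. Rbpj crypts held 920.4 and 916 CPM, and both groups lay above every other library of the study. CD274+CD69+ control cells held 623 and 617, DT-treated cells 605 and 674, enterocyte progenitors 560.5 and 495, and DBZ crypts 535 and 390.4. The Lgr5-GFP-Cre libraries held 409, 536 and 429, Paneth cells 407 and 281, Bmi1-GFP cells 345, 304 and 326, Lgr5-GFP-DTR cells 248 and 268, and enteroendocrine cells 212 and 252. The last 4 groups and the irradiated library (319.5) lay below all Lgr5-GFP-Cre libraries, and 5 of 11 neighbouring pairs did not overlap.

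Hnf4a was 3.05-fold higher in goblet libraries than in Lgr5-GFP-Cre (log2 1.61, SE 0.18, adjusted p = 3.3e-07) and 2.24-fold higher than in CD274+CD69+ control cells (log2 1.16, SE 0.21, adjusted p = 0.000129). It was 1.9-fold lower in enteroendocrine cells (log2 -0.93, SE 0.19, adjusted p = 0.000815). Those 3 calls held in every alternative. In Bmi1-GFP cells it was 1.43-fold lower (adjusted p = 0.0168), with an adjusted p of 0.0614 without Lgr5-GFP-Cre replicate 2 and 0.0705 without Bmi1-GFP replicate 2. In Lgr5-GFP-DTR cells it was 1.73-fold lower (adjusted p = 0.00778; 0.127 with only these 2 groups in the fit). Rbpj crypts held 2.04-fold more than DBZ crypts (log2 1.03, SE 0.21, adjusted p = 0.00134). With the kit as a term the log2 value was 0.99 (SE 0.37, adjusted p = 0.177).

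Hnf4g, the second HNF4 receptor, which shares much of its binding with HNF4A in enterocytes, varied most of the 8 genes. Its lowest and highest group means lay 20-fold apart, which placed its spread at the 81st percentile of all genes tested. Lgr5-GFP-Cre libraries held 49.6, 66.5 and 79.3 CPM, Lgr5-GFP-DTR cells 82.8 and 92.9, and enteroendocrine cells 79.0 and 95.1. The next libraries up were a Paneth library at 224 and a Bmi1-GFP library at 252, so these 3 groups stood apart below all others. Bmi1-GFP cells held 298, 252 and 467 CPM, enterocyte progenitors 374 and 347, DBZ crypts 408 and 506, and Rbpj crypts 283 and 428. Paneth cells held 224 and 551, CD274+CD69+ control cells 597 and 609, DT-treated cells 308 and 430.2, and goblet libraries 779.6 and 580.4.

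Hnf4g was higher than in Lgr5-GFP-Cre in 6 of the 7 cell populations compared with it. The fold was 9.28 in CD274+CD69+ control cells (log2 3.21, SE 0.31, adjusted p = 5.43e-07), 8.83 in goblet libraries (log2 3.14, SE 0.31, adjusted p = 5.09e-08) and 6.96 in DBZ crypts (log2 2.80, SE 0.31, adjusted p = 4.16e-06). It was 5.85 in Paneth cells (log2 2.55, SE 0.31, adjusted p = 7.92e-06), 5.64 in enterocyte progenitors (log2 2.50, SE 0.31, adjusted p = 1.12e-05) and 5.11 in Bmi1-GFP cells (log2 2.35, SE 0.29, adjusted p = 7.49e-06). All 6 calls held in every alternative. Enteroendocrine cells stood at log2 0.47 (SE 0.31, adjusted p = 0.219), and the other Lgr5 line stood at log2 0.47 as well (SE 0.31, adjusted p = 0.295).

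Bmi1-GFP cells and Paneth cells also held more Hnf4g than enteroendocrine cells, by 3.69-fold (log2 1.89, SE 0.33, adjusted p = 0.000929) and 4.23-fold (log2 2.08, SE 0.35, adjusted p = 0.000644). The Bmi1-GFP libraries carried enteroendocrine transcripts too, with a summed level of 6 enteroendocrine markers of 6908 to 12574 CPM against 12728 to 25032 in enteroendocrine cells and 255 to 261 in Lgr5-GFP-Cre. Their 13 immune markers summed to 981 to 2342 CPM against 22.0 to 43.9 in Lgr5-GFP-Cre, and the part of those cells in the Bmi1-GFP values was not tested. Between DT-treated and control CD274+CD69+ cells the Hnf4g values did not overlap, at log2 -0.70 (SE 0.34), but the adjusted p was 0.847. In goblet libraries against CD274+CD69+ control cells the value was -0.07 (log2, SE 0.34), and it changed sign with DESeq2 scaling (0.21).

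The order of libraries by Hnf4g was that of enterocyte transcripts within most groups. In 10 of the 11 replicated groups the order of the libraries by Hnf4g was their order by the summed level of the 7 enterocyte markers Alpi, Anpep, Apoa4, Fabp1, Sis, Slc5a1 and Mttp. As many or more groups were in that order for 1.75% of genes tested, and the median gene was in order in 5 groups. In Paneth cells the marker sum was 3816 and 9400 CPM where Hnf4g was 224 and 551. In Bmi1-GFP cells it was 7048, 4715 and 11497 where Hnf4g was 298, 252 and 467, and in DBZ crypts 2552 and 10780 where Hnf4g was 408 and 506. The exception was Lgr5-GFP-Cre, with sums of 1652, 3196 and 3057. Gata4, Gata6 and Klf5 were in order in 7 groups, Hnf4a in 5, and Cdx1, Cdx2 and Elf3 in 3. Over the 12 group means the Pearson correlation with the marker sum was 0.84 for Hnf4g (Spearman 0.75), 0.84 for Gata6 (Spearman 0.73) and 0.51 for Hnf4a (Spearman 0.41). A higher correlation was found for 10.3%, 10.4% and 32% of all genes considered, so between groups Hnf4g was 1 of many. Whether enterocytes among the sorted cells carry the Hnf4g reads was not tested.

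**Figure D3:**
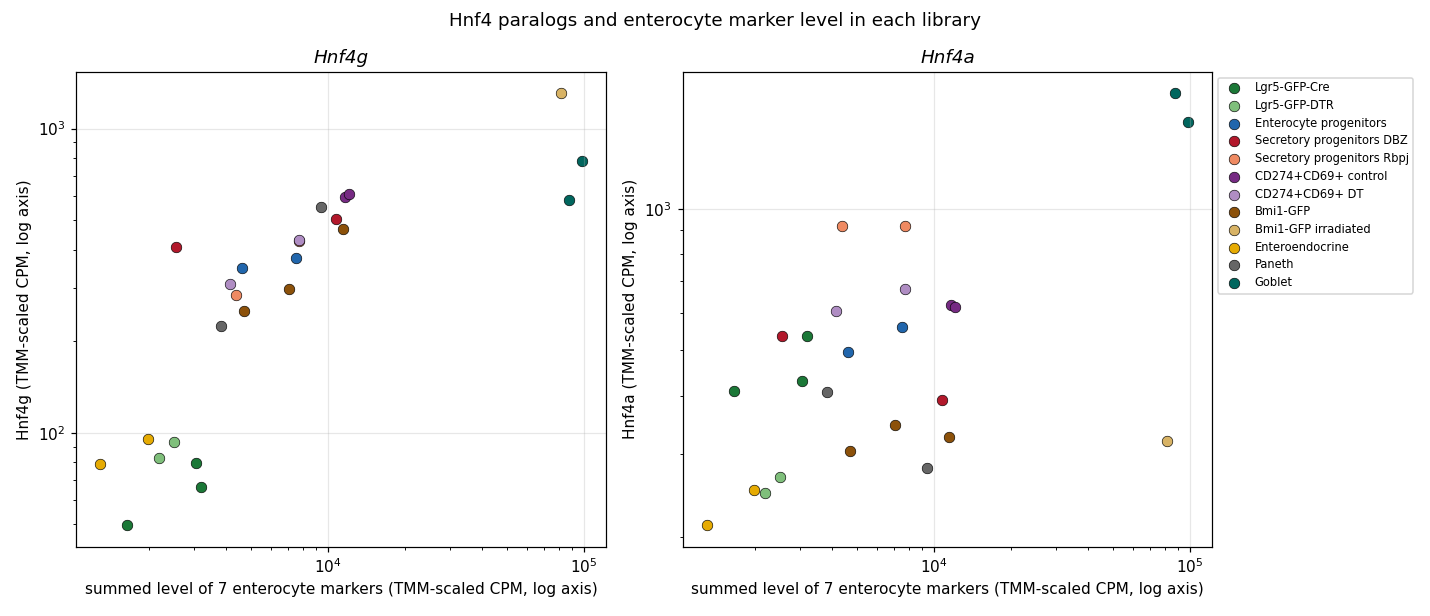
Hnf4g (left panel) and Hnf4a (right panel; y axes, TMM-scaled CPM, log scale) against the summed level of 7 enterocyte markers (x axis, TMM-scaled CPM, log scale); each point is 1 of the 25 libraries, coloured by group. The goblet and irradiated libraries lie at the far right with 580.4 to 1304 CPM of Hnf4g and the Lgr5-GFP-Cre libraries at the lower left with 49.6 to 79.3, while the irradiated library holds only 319.5 CPM of Hnf4a.

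Gata4, the proximal GATA factor, was highest in the CD274+CD69+ gate, with 310.0 and 307 CPM in control and 274 and 346 in DT-treated cells. Enteroendocrine cells held 74.9 and 103 CPM and Lgr5-GFP-DTR cells 124 and 72.6, the lowest values of the study. Lgr5-GFP-Cre held 153, 228 and 165, and enterocyte progenitors (227 and 189.6), goblet libraries (183 and 181) and Paneth cells (156 and 239) overlapped it. Gata4 was 1.71-fold higher in CD274+CD69+ control cells than in Lgr5-GFP-Cre (log2 0.77, SE 0.22, adjusted p = 0.00759; 0.0704 without the TruSeq libraries). It was 1.97-fold lower in enteroendocrine cells (log2 -0.98, SE 0.23, adjusted p = 0.00201), a call held in every alternative. In Lgr5-GFP-DTR cells it was 1.8-fold lower (adjusted p = 0.0138; 0.0582 without Lgr5-GFP-Cre replicate 2 and 0.192 without Lgr5-GFP-DTR replicate 2). The sum of 4 Paneth markers was 146622 to 201198 CPM in those cells against 38760 to 44958 in Lgr5-GFP-Cre. Their 3 tuft markers summed to 545 and 804 CPM against 4.10 to 8.65. The part of either in the lower values of Lgr5-GFP-DTR cells was not tested.

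Paneth cells held 2.12-fold more Gata4 than enteroendocrine cells (log2 1.09, SE 0.25, adjusted p = 0.00389; 0.0646 without enteroendocrine replicate 1 and 0.0617 without Paneth replicate 2). Bmi1-GFP cells, with 137, 150.1 and 176 CPM, held 1.66-fold more (adjusted p = 0.0249; 0.257 without enteroendocrine replicate 1 and 0.079 without Bmi1-GFP replicate 3). Goblet libraries held 2.01-fold less than CD274+CD69+ control cells (log2 -1.01, SE 0.24, adjusted p = 0.0021; 0.0826 without the TruSeq library).

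Gata6, the GATA factor of the whole intestine, was highest in goblet libraries, at 255 and 246 CPM, above every other library. Lgr5-GFP-Cre held 97.3, 151 and 113, and the irradiated library 150.4. Enterocyte progenitors held 74.3 and 73.1 CPM, DBZ crypts 69.9 and 75.3, Lgr5-GFP-DTR cells 84.1 and 54.5, and enteroendocrine cells 67.2 and 64.5, each below all Lgr5-GFP-Cre libraries. Rbpj crypts (72.8 and 84.2) and Bmi1-GFP cells (96.2, 88.7 and 93.6) lay below them too. Goblet libraries were 1.77-fold above Lgr5-GFP-Cre (log2 0.82, SE 0.17, adjusted p = 0.000371) and 1.79-fold above CD274+CD69+ control cells (log2 0.84, SE 0.19, adjusted p = 0.00142). Enteroendocrine cells were 1.75-fold below Lgr5-GFP-Cre (log2 -0.81, SE 0.18, adjusted p = 0.00151), and these 3 calls held in every alternative.

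Both crypt progenitor groups held less Gata6 than Lgr5-GFP-Cre, by 1.6-fold in enterocyte progenitors (adjusted p = 0.00661; 0.0567 without enterocyte progenitor replicate 1) and by 1.66-fold in DBZ crypts (adjusted p = 0.00415; 0.0543 without DBZ replicate 1). Lgr5-GFP-DTR cells were 1.69-fold lower (adjusted p = 0.00737; 0.118 without Lgr5-GFP-DTR replicate 2). Bmi1-GFP cells were 1.31-fold lower at an adjusted p of 0.0477. That call was lost without Lgr5-GFP-Cre replicate 2 (0.243) and without replicate 3 (0.0772). It was also lost without any 1 of the Bmi1-GFP replicates (0.102, 0.153 and 0.0983 for replicates 1, 2 and 3), and in each of the 6 other fits run on that comparison (0.0601 to 0.107).

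Klf5, the zinc finger factor of dividing crypt cells, was lowest in Rbpj crypts (152 and 169 CPM) and goblet libraries (186 and 143). CD274+CD69+ control cells held 654 and 644, DT-treated cells 615 and 721, enterocyte progenitors 559 and 631, Lgr5-GFP-Cre 434, 567 and 522, and DBZ crypts 565 and 407. The 2 low groups stood below every other library, of which the nearest was an enteroendocrine one at 212. Klf5 was 3.64-fold lower in goblet libraries than in Lgr5-GFP-Cre (log2 -1.86, SE 0.21, adjusted p = 3.42e-07) and 4.67-fold lower than in CD274+CD69+ control cells (log2 -2.22, SE 0.23, adjusted p = 3.3e-07). It was 2.95-fold lower in Rbpj than in DBZ crypts (log2 -1.56, SE 0.22, adjusted p = 6.52e-05), the 1 of 3 member calls in that comparison that held with the kit as a term. Enteroendocrine cells, at 212 and 304 CPM, were 1.9-fold below Lgr5-GFP-Cre (log2 -0.93, SE 0.21, adjusted p = 0.0014). Bmi1-GFP cells held 1.74-fold more than enteroendocrine cells (adjusted p = 0.00956; 0.165 without enteroendocrine replicate 1).

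Proliferation markers differed between the 2 groups with the least Klf5. The sum of Mki67, Top2a, Mcm2, Mcm5 and Ccnb1 was 117 to 145 CPM in goblet libraries and 1217 to 1513 in Rbpj crypts, the highest of the study, against 757 to 855 in Lgr5-GFP-Cre. Over the 12 group means the correlation of Klf5 with that sum was 0.17 (Spearman 0.20).

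Elf3, the epithelial ETS factor, was highest in Lgr5-GFP-Cre (969, 1121 and 923 CPM) and lowest in goblet libraries (287 and 382). CD274+CD69+ control cells held 848 and 828, Lgr5-GFP-DTR cells 777 and 824, and enterocyte progenitors 742 and 712. Bmi1-GFP cells held 573, 594 and 587, DBZ crypts 606 and 447, and Rbpj crypts 454 and 429. Every Lgr5-GFP-Cre library lay above every other library, and 6 of 11 neighbouring pairs of groups did not overlap, the most of the 8 genes. How common such a count is among all genes was not computed. Against Lgr5-GFP-Cre, Elf3 was 3.54-fold lower in goblet libraries (log2 -1.83, SE 0.20, adjusted p = 1.75e-07), 1.91-fold lower in DBZ crypts (log2 -0.94, SE 0.19, adjusted p = 0.00105) and 1.74-fold lower in Bmi1-GFP cells (log2 -0.80, SE 0.17, adjusted p = 0.000817). These calls held in every alternative, as did the 2.97-fold lower level in goblet libraries than in CD274+CD69+ control cells (adjusted p = 5.96e-06). In Paneth cells it was 1.56-fold lower (adjusted p = 0.0121; 0.2 without Paneth replicate 2). In enteroendocrine cells it was 1.48-fold lower (adjusted p = 0.0201; 0.069 and 0.113 without enteroendocrine replicates 1 and 2).

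The paralogs of each pair did not keep a fixed ratio of reads. These are ratios of read counts, with no correction for length, so they can be compared between groups for 1 pair but say nothing of which paralog is more abundant. Hnf4a reads were 7.24 times those of Hnf4g on average in Lgr5-GFP-Cre libraries (range 5.41 to 8.25), 2.94 times in Lgr5-GFP-DTR cells and 2.67 times in enteroendocrine cells. They were near parity in both CD274+CD69+ control libraries (1.04 and 1.01). The libraries lay on both sides of parity in Bmi1-GFP cells (1.16, 1.21 and 0.698), DBZ crypts (1.31 and 0.772) and Paneth cells (1.82 and 0.509), and Hnf4g reads led in the irradiated library (0.245). Cdx1 reads were 4.75 times those of Cdx2 in Lgr5-GFP-Cre, 7.26 times in Lgr5-GFP-DTR cells, 1.15 times in goblet libraries and 0.986 times in Rbpj crypts. Gata4 reads were 1.51 times those of Gata6 in Lgr5-GFP-Cre and 2.82 times in enterocyte progenitors. Only in goblet libraries were Gata6 reads the more numerous, at 0.718 and 0.734 Gata4 reads per Gata6 read. Differences between these ratios were not tested.

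**Figure D4:**
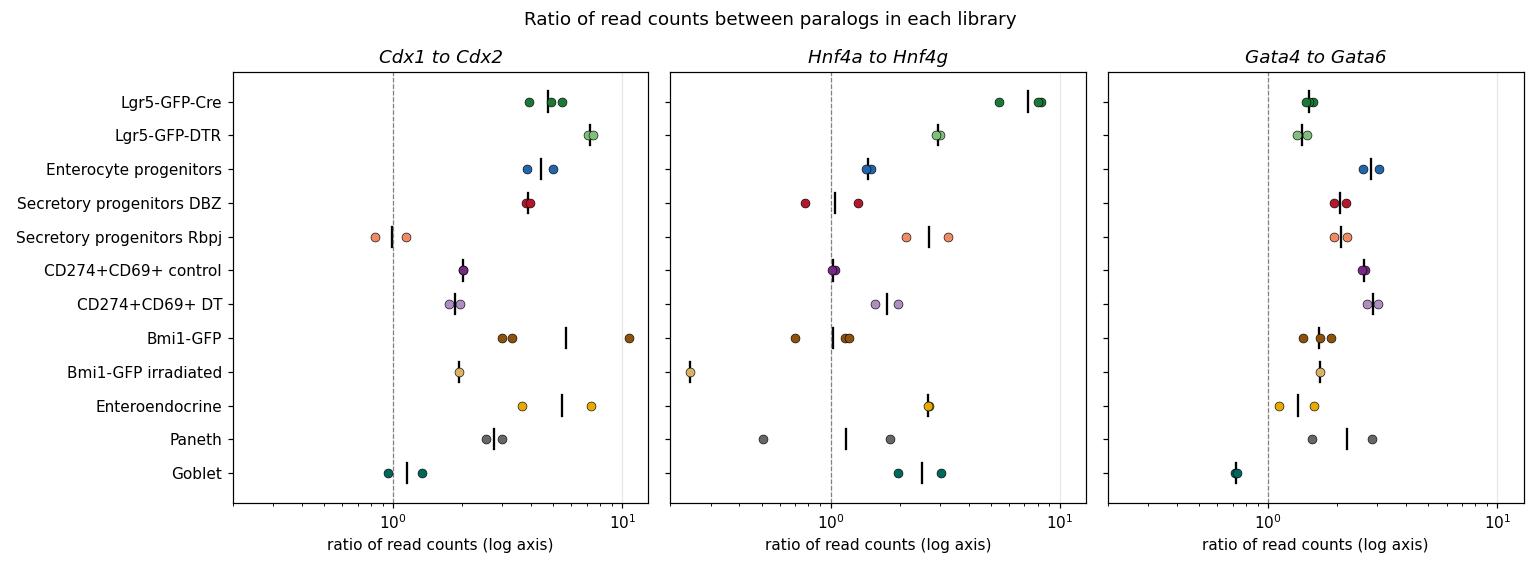
Ratio of reads within 3 paralog pairs (x axis, log scale, not corrected for length) in every library by group (y axis); points are libraries, vertical bars are group means and the dashed line marks equal reads. The Hnf4a to Hnf4g ratio is highest in Lgr5-GFP-Cre (5.41 to 8.25), and the Gata4 to Gata6 ratio is below 1 in the goblet libraries.

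Over the 12 group means of log2 CPM the closest pair of members was Klf5 and Elf3 (Pearson 0.78, Spearman 0.67), followed by Cdx1 and Elf3 (0.69, Spearman 0.57) and Hnf4g and Gata4 (0.66, Spearman 0.64). Paralogs were less close: Gata4 and Gata6 0.52, Hnf4a and Hnf4g 0.43, and Cdx1 and Cdx2 0.14. The most opposed pair was Cdx1 and Hnf4g (-0.72, Spearman -0.59). These values rest on 12 points that share libraries and composition.

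One library of Bmi1-GFP cells came from irradiated mice, so its values have no replicate and no test. It held 1304 CPM of Hnf4g, 3.85 times the mean of the 3 unirradiated libraries and 1.48 on the log2 scale above the highest of them. Hnf4g was the 1 member of 8 that lay above their range by more than 1 on that scale, as did 13.3% of all genes. Cdx1 stood at 144 CPM, 0.482 times the mean and below the lowest library. Gata4 (254 CPM, ratio 1.64), Gata6 (150.4 CPM, ratio 1.62) and Elf3 (734 CPM, ratio 1.26) lay above the range, so 5 of 8 members lay outside it, as did 83.3% of all genes. Cdx2, Hnf4a and Klf5 lay within it. The enterocyte marker sum in this library was 81270 CPM against 4715 to 11497 without irradiation, the stem sum 43.6 against 783 to 1293, and the enteroendocrine sum 1828 against 6908 to 12574. The part of that change in the Hnf4g and Cdx1 values was not tested.

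Genes reported to be bound and activated by the HNF4 receptors were described beside the members. All 9 on the list were tested, and 3 of them (Apoa4, Fabp1 and Mttp) are also among the 7 enterocyte markers. In goblet libraries 9 of 9 were higher than in Lgr5-GFP-Cre (median log2 3.79 against 0.00 for all genes). Apob, which encodes the structural protein of chylomicrons, rose from 99.2 to 12579 CPM (log2 6.76, SE 0.54, adjusted p = 2.95e-09), and Mttp, which loads lipid onto it, by 3.98 (log2, SE 0.41). Of all genes, 34.4% were higher there. In CD274+CD69+ control cells 6 of 9 were higher (median 1.56; 24% of all genes higher), in Bmi1-GFP cells 5 (median 1.21; 27.9%) and in DBZ crypts 4 (median 1.40; 21%). In Paneth cells and enterocyte progenitors 2 of 9 each were higher (medians 0.57 and 0.60), a share like that of all genes (21.6% and 22.2%). In these 5 groups 0 were lower. Apob and Mttp were among the higher genes in all of them.

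In enteroendocrine cells Hnf4a was lower and Hnf4g was not called. There 0 of 9 HNF4 targets were higher and 3 lower (median -0.53), against 25.5% and 20.4% of all genes. The lower genes were the apolipoproteins Apoa4 (log2 -2.71, SE 0.72, adjusted p = 0.0054) and Apoa1 (log2 -1.84, SE 0.59, adjusted p = 0.017) and Creb3l3, a lipid-regulating transcription factor (log2 -1.42, SE 0.55, adjusted p = 0.0431). Against enteroendocrine cells 8 of 9 were higher in Bmi1-GFP cells (median 2.41), where 12.6% of all genes were. In Paneth cells 5 of 9 were higher than in enteroendocrine cells (median 1.98), where 14% of all genes were. Apob was 6.39-fold higher in Bmi1-GFP cells (adjusted p = 0.00165) and 9.22-fold higher in Paneth cells (adjusted p = 0.000696). The targets did not follow Hnf4a in 2 other comparisons. In Lgr5-GFP-DTR cells Hnf4a was also lower than in Lgr5-GFP-Cre and Hnf4g not called. There 0 of 9 targets were higher and 0 lower (median -0.33), against 9.49% and 11.1% of all genes. Rbpj crypts held more Hnf4a than DBZ crypts. Between them 0 targets were higher and 0 lower (median -0.64), against 12.9% and 11.9% of all genes.

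Reported CDX targets were more often higher than lower in goblet libraries, Bmi1-GFP cells and Paneth cells, where Cdx2 was lower. The same held in CD274+CD69+ control cells, DBZ crypts and enterocyte progenitors, where Cdx2 was not called. Cdx1 was called lower in all of the groups just named except enterocyte progenitors. In goblet libraries 7 of 9 listed targets were higher than in Lgr5-GFP-Cre and 1 was lower (median log2 3.06), where 34.4% of all genes were higher. Muc2, the goblet mucin, was higher by 5.47 (log2, SE 0.35), Heph, the iron oxidase of the basolateral membrane, by 4.76 (SE 0.38), and Cdh17, the liver-intestine cadherin, by 3.01 (SE 0.24). In Bmi1-GFP cells 7 were higher and 2 lower (median 1.10; 27.9% of all genes higher), and in Paneth cells 6 higher and 2 lower (median 1.03; 21.6%). Where Cdx2 was not called, 7 were higher and 1 lower in CD274+CD69+ control cells (median 1.77; 24%), 5 higher and 0 lower in DBZ crypts (median 1.29; 21%) and 4 higher and 2 lower in enterocyte progenitors (median 0.60; 22.2%). Sis, the brush border sucrase, was higher in Bmi1-GFP and Paneth cells (log2 3.46, SE 0.50 and log2 3.59, SE 0.52). In enteroendocrine cells 1 was higher and 2 lower: Muc2 was higher (log2 2.62, SE 0.32), and the homeobox gene Isx (log2 -1.29, SE 0.18) and the tight junction gene Cldn2 (log2 -1.67, SE 0.31) were lower. In Lgr5-GFP-DTR cells 0 were higher and 1 lower. Of all genes, 25.5% were higher and 20.4% lower in enteroendocrine cells, and 9.49% and 11.1% in Lgr5-GFP-DTR cells. Sis is itself an enterocyte marker and Muc2 a goblet marker on the lists used here.

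Relatives of the members outside the 8 were more often higher than lower in each of the 8 groups compared with Lgr5-GFP-Cre. Of 16 tested relatives (Cdx4, Gata1 and Elf5 were too low), 10 were higher and 1 lower in Paneth cells (21.6% and 19.1% of all genes), 9 and 3 in goblet libraries (34.4% and 35.4%), and 7 and 3 in Bmi1-GFP cells (27.9% and 22.5%). The counts were 7 and 0 in CD274+CD69+ control cells (24% and 21.3%), 5 and 2 in enteroendocrine cells (25.5% and 20.4%), 5 and 2 in enterocyte progenitors (22.2% and 17.2%), 5 and 4 in DBZ crypts (21% and 15.7%), and 4 and 0 in Lgr5-GFP-DTR cells (9.49% and 11.1%). Klf4, a zinc finger factor of goblet cell maturation and cell cycle exit, stood at 1115 CPM in goblet libraries against 15.8 (log2 5.90, SE 0.38, adjusted p = 2.75e-10), where Klf5 was lower. Elf4 (log2 3.43, SE 0.29) and Klf6 (log2 2.92, SE 0.27) were higher there too, where Elf3 was lower. Klf6 was higher in Bmi1-GFP (log2 1.88, SE 0.24), enteroendocrine (log2 2.08, SE 0.26), Paneth (log2 2.55, SE 0.26) and CD274+CD69+ control cells (log2 2.58, SE 0.26) as well. The 13 immune markers summed to 22.0 to 43.9 CPM in Lgr5-GFP-Cre. They summed to 981 to 2342 in Bmi1-GFP cells, 271 to 438 in enteroendocrine cells and 237 to 390 in goblet libraries. The sums were 281 to 327 in enterocyte progenitors, 82.5 to 180 in DBZ crypts and 42.3 to 146 in CD274+CD69+ control cells. Paneth and Lgr5-GFP-DTR cells stood at 60.0 to 105 and 37.3 to 82.3. The part of immune cells in the relatives' values was not tested.

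Partner regulators, a list of 18 nuclear receptors, cofactors and other factors of the gut epithelium, split both ways. In enteroendocrine cells 3 of 18 were higher and 9 lower (median -0.68; 25.5% of all genes higher and 20.4% lower), among the lower ones the vitamin D receptor Vdr (793 to 208 CPM, log2 -1.87, SE 0.27, adjusted p = 2.87e-05). In Bmi1-GFP cells 4 were higher and 8 lower (27.9% and 22.5% of all genes). Paneth cells had 5 and 6 (21.6% and 19.1% of all genes) and enterocyte progenitors 6 and 4 (22.2% and 17.2%). DBZ crypts had 5 and 5 (21% and 15.7%) and Lgr5-GFP-DTR cells 2 and 4 (9.49% and 11.1%). In goblet libraries 8 were higher and 5 lower (34.4% and 35.4% of all genes), among the higher ones Rxra, the partner of many nuclear receptors (log2 1.67, SE 0.18), and Prdm1, a repressor of the fetal-to-adult switch (log2 6.78, SE 0.65). In CD274+CD69+ control cells 7 were higher and 1 lower (24% and 21.3% of all genes), among the higher ones the coactivator Ppargc1a (log2 2.24, SE 0.31). Zfpm1, which encodes a GATA cofactor, was lower in Bmi1-GFP cells (128 to 63.9 CPM, log2 -1.02, SE 0.19), enterocyte progenitors (37.4 CPM, log2 -1.75, SE 0.22) and DBZ crypts (35.5 CPM, log2 -1.86, SE 0.22).

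Pdx1 and Fabp6, which mark opposite ends of the small intestine, differed between the unsorted DBZ crypts and Lgr5-GFP-Cre. Pdx1, the homeobox gene of the duodenum, stood at 14.5 CPM in Lgr5-GFP-Cre (10.2 to 20.3) but at 0.367 in enterocyte progenitors (log2 -5.30, SE 0.51, adjusted p = 1.12e-06), 0.276 in DBZ crypts (log2 -5.70, SE 0.53, adjusted p = 1.03e-06) and 0.987 in Rbpj crypts. Fabp6, the ileal bile acid binding protein, stood at 85.5 CPM in DBZ crypts (71.9 and 99.1) and 19.1 in Rbpj crypts against 0.185 in Lgr5-GFP-Cre (log2 8.70, SE 0.71, adjusted p = 2.66e-07 for DBZ crypts). Of 4 distal genes, 4 were higher in DBZ crypts and 3 in enterocyte progenitors, where 21% and 22.2% of all genes were. Some sorted groups held more of them too: 4 were higher in goblet libraries (34.4% of all genes), and 3 each in Bmi1-GFP (27.9%) and CD274+CD69+ control cells (24%). In Paneth cells 2 were higher (21.6%) and in enteroendocrine cells 1 (25.5%). Of 6 proximal genes 2 were lower and 0 higher in DBZ crypts and in enterocyte progenitors, where 15.7% and 17.2% of all genes were lower. In goblet libraries 5 were higher and 0 lower (34.4% and 35.4% of all genes). Bmi1-GFP cells had 3 higher and 1 lower (27.9% and 22.5%), and CD274+CD69+ control cells 3 and 0 (24% and 21.3%). Paneth cells had 2 and 1 (21.6% and 19.1%), enteroendocrine cells 1 and 1 (25.5% and 20.4%) and Lgr5-GFP-DTR cells 1 and 0 (9.49% and 11.1%). Rbpj crypts were not compared with Lgr5-GFP-Cre. Against DBZ crypts they had 2 proximal genes higher and 3 of 4 distal genes lower (12.9% of all genes higher and 11.9% lower). Those 2 groups also differ in kit. Gata4 in DBZ crypts and enterocyte progenitors gave log2 values of -0.29 (SE 0.22, adjusted p = 0.326) and 0.23 (SE 0.22, adjusted p = 0.426). All groups are labelled as proximal, the unsorted crypts differ from the sorted cells in preparation, and the stretch of gut sampled was not tested.

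Among the listed regulators of neighbouring regions, Sox2, Hoxb13, Hoxd13 and Barx1 were too low to test. Nkx2-1, a foregut factor, was called higher than in Lgr5-GFP-Cre in goblet libraries (log2 2.28, SE 0.70, adjusted p = 0.00766) and Bmi1-GFP cells (log2 1.95, SE 0.65, adjusted p = 0.0182), at mean levels of 1.23 and 0.834 CPM.

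The genes most like each member over the groups are listed as a description. The highest of so many correlations is high by selection, and no chance level was computed. Likeness was measured as the Pearson correlation of log2 CPM over the 12 group means among 10854 genes with at least 10 CPM in a group. The closest to Hnf4g were Mtm1 (0.99), Snx13 (0.99) and Acvr2a (0.98), and 291 genes exceeded 0.9. The closest to Cdx1 were Rae1 (0.98), Taf9 (0.98) and Ppp1ca (0.97), with 388 above 0.9. Cdx2 had 1 gene above 0.9, Ubqln4 (0.94), followed by Dgcr2 (0.90) and Gpd1l (0.89). The closest to Hnf4a were Gas2l3, 0610030E20Rik and Eps15l1 (0.92 each), to Gata4 Tox4 (0.95), Ripk4 and Mapkap1 (0.94 each), and to Gata6 Tmem184b (0.96), Bcar1 and Pcdh1 (0.95 each). Klf5 was closest to Ccnt1, Flad1 (0.92 each) and Adck2 (0.91), and Elf3 to Adck2 (0.93), Mlycd and Prr5 (0.92 each).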

How the data were processed

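Single-end reads of 75 bp from 25 RNA libraries had been counted per gene, and the authors deposited the raw counts. The submitters' processing notes name Bowtie2, TopHat2 2.0.6, DESeq2 and the mm10 build. How reads were counted, with which annotation and strand setting, is not given in the sources used here. Each column was matched to a sample by name, with 0 left unmatched.

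The analysis used edgeR 4.0.16 under R 4.3.3. After filterByExpr (minimum count 10, minimum total 15) and TMM scaling, the 24 libraries of the 11 replicated groups entered 1 quasi-likelihood fit (common dispersion 0.0714, prior degrees of freedom 5.44). Every adjusted p is from this model unless another tool is named, with Benjamini-Hochberg adjustment over 14837 genes within a comparison. Levels are TMM-scaled CPM over all 25 libraries, and correlations use log2 CPM with a prior count of 2. The model was also run on simulated data, but the outcome is not given here and is not used as support.

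The members and gene lists were chosen with earlier results of these data known. Named genes are the members, up to 3 called genes of lowest adjusted p per list and comparison, and the 3 genes most like each member; some of these are left out for length. Alternatives were DESeq2 1.42.0 size factors, its Wald test, no filter, a replicate block, a kit term, only the 2 groups compared, no TruSeq libraries, and leaving out each library. No library pair was identical. The 2 CD274+CD69+ control libraries, although labelled with different kits, were the closest (chi-square 4.23 per gene, other pairs 27.8 to 194), still beyond sampling noise, and were counted as 2; every value with a kit term rests on those labels. A result on 1 listed gene is not reported here.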

Additional observations from a re-analysis of the deposited data

How the results depend on the processing

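Of 112 member values in 14 comparisons, 52 were called, and 30 of those kept direction and call under every alternative. None of the 52 changed sign. With the kit as a term, 1 member was called between Rbpj and DBZ crypts in place of 3, and 396 of all genes in place of 3671. The log2 values of the 2 lost calls stayed close (-1.30 for Cdx1 and 0.99 for Hnf4a) while their SEs grew. With only the 2 groups compared in the fit, 2 were called in Paneth cells and 0 in Lgr5-GFP-DTR cells against Lgr5-GFP-Cre, and 1 between Paneth and enteroendocrine cells. In that order these fits called 3848 of 12570, 482 of 12372 and 1536 of 13408 genes. The main fit called 6040, 3049 and 4368 of 14837. DESeq2's Wald test called 4 members in enterocyte progenitors in place of 2, adding Cdx1 and Elf3, and 6424 genes in place of 5844. Its size factors moved the median gene by 0.22 (log2) in goblet libraries against Lgr5-GFP-Cre and by 0.25 against CD274+CD69+ control cells, where 54.1% of called genes were higher in place of 42.5%.

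Leaving out 1 library at a time, the number of members called was 1 to 3 for Bmi1-GFP against enteroendocrine cells, 1 to 2 for Paneth against enteroendocrine cells, 1 to 4 for Lgr5-GFP-DTR, 1 to 3 for enterocyte progenitors, 2 to 4 for Paneth cells, 4 to 6 for Bmi1-GFP cells and 5 to 7 for enteroendocrine cells against Lgr5-GFP-Cre. It was 3 to 4 for CD274+CD69+ control cells and for DBZ crypts, and 6 to 7 for goblet libraries.

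Values near 0, none of them called, changed sign. With DESeq2 size factors or its Wald test they were 0.0029 for Gata4 in goblet libraries, -0.035 for Hnf4a in DBZ crypts and -0.039 for Cdx2 in CD274+CD69+ control cells, and 0.21 for Hnf4g in goblet libraries against CD274+CD69+ control cells. For Hnf4a in DBZ crypts the value was -0.018 with the replicate block and with only 2 groups. For Cdx2 in CD274+CD69+ control cells it was -0.020 with the block, -0.066 with the kit term and -0.057 without TruSeq libraries. For Hnf4g in goblet against CD274+CD69+ control cells it was 0.045 with only 2 groups and 0.15 without TruSeq libraries.

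Leaving out 1 library, the range spanned 0 for 14 values. In DBZ crypts against Lgr5-GFP-Cre it was -0.23 to 0.24 for Hnf4a and -0.32 to 0.17 for Klf5, and against enterocyte progenitors -0.091 to 0.029 for Gata6 and -0.44 to 0.0040 for Hnf4a. In CD274+CD69+ control cells it was -0.15 to 0.25 for Cdx2 and -0.13 to 0.15 for Gata6. In DT-treated cells it was -0.020 to 0.11 for Cdx1, -0.021 to 0.12 for Hnf4a, -0.16 to 0.16 for Gata4 and -0.062 to 0.15 for Klf5. It was -0.30 to 0.35 for Cdx2 in Bmi1-GFP against enteroendocrine cells, -0.21 to 0.36 for Gata4 in Paneth cells, -0.37 to 0.18 for Elf3 in Paneth against enteroendocrine cells, and -0.29 to 0.12 for Hnf4g in goblet against CD274+CD69+ control cells. The cause of these changes was not tested.

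Replicate numbers were not taken to pair the samples, since the labels do not say what a number marks. In the comparison with 3 pairs the correlation of deviations was -0.065, 0.007 and 0.050 between the same-numbered Bmi1-GFP and Lgr5-GFP-Cre libraries, and 2 of these 6 libraries were closest to their own number. Comparisons with 2 pairs gave -0.19 to 0.33, the highest between Paneth and enteroendocrine cells. With the replicate block, 5 members were called in Bmi1-GFP cells, 8 in enteroendocrine cells, 3 in Paneth cells and 3 in enterocyte progenitors against Lgr5-GFP-Cre, and 2 between Bmi1-GFP and enteroendocrine cells. In that order 7280, 6190, 5587, 5459 and 2920 of all genes were called, in place of 7475, 6805, 6040, 5844 and 3665. The block added Hnf4g in enteroendocrine cells (log2 0.69, adjusted p = 0.0488) and Cdx1 in enterocyte progenitors (log2 -0.64, adjusted p = 0.0291). The replicated groups held 2 or 3 libraries, and each member had at least 540 counts in every library.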
